A study of Mus musculus with 9 samples.

Results

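Gastrocnemius muscle, a calf muscle of mostly fast fibres, was compared between 2 viral vectors. The decoy vector (AAV-GFP-MBNL1∆) is an adeno-associated virus that carries green fluorescent protein and the form of MBNL1 that the labels write as MBNL1∆, and the control vector (AAV-GFP) carries green fluorescent protein. The comparison held 3 libraries per vector, chosen by their titles, which are 6 of the 9 libraries of the study. The other 3 libraries came from muscle injected with saline and are given as background. All mice were wild-type FVB, aged 2 to 3 months, and muscles were taken 7 weeks after injection, and as far as the labels say the groups differ only in what was injected. The sources used here do not give the sex of the mice, the capsid, promoter and dose of the vectors, or whether each library is 1 animal. P-values therefore set the difference between groups only against how far libraries differ within a group, and that spread may be technical. The genes described are the 17791 autosomal genes that had enough counts to be tested, of 18514 tested on all chromosomes.

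MBNL1 belongs to the muscleblind family of RNA-binding proteins, which bind short YGCY motifs in pre-mRNA and switch muscle transcripts from fetal to adult splicing. In myotonic dystrophy, expanded CUG repeats in RNA capture these proteins in nuclear foci, and the decoy named in the series title is a protein that binds such repeats tightly. Adeno-associated virus vectors deliver DNA that persists mostly outside the chromosomes of muscle fibres, and muscle that receives them can show interferon responses and entry of lymphocytes. The libraries hold counts per gene, so splicing itself was not analysed here.

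Library totals ran from 44603618 counts in control-vector library 3 to 76970849 counts in a saline library, and from 58667692 to 74865772 counts with the decoy vector. Control-vector library 2 stood apart: mitochondrial genes took 9.68% of its counts against 13.3% to 15.4% in the other 8 libraries, and its 10 most abundant genes took 17.7% against 23.6% to 27.7%. A principal component of log2 expression over the 6 compared libraries that held 75.9% of the variance placed control-vector library 2 at −79.3, control-vector libraries 1 and 3 at −23.6 and 14.2, and the decoy-vector libraries between 22.2 and 38.2. The second component, with 14.6%, placed the decoy-vector libraries between −13.5 and −9.67 and the control-vector libraries at 13.5, −11.1 and 33.7. Genes of the sex chromosomes, which are outside the autosomal comparison, separated the vectors completely. Xist, the RNA that silences 1 X chromosome in females, lay between 105 and 136 CPM (counts relative to the scaled library size) in the control-vector and saline libraries and at no more than 0.0902 CPM with the decoy vector. The Y-linked Ddx3y lay between 82.7 and 84.6 CPM with the decoy vector and at no more than 2.58 CPM elsewhere. Effects of the decoy vector and of sex cannot be told apart in any gene below. Summed over 19 fast fibre genes, the level was 95503 to 155335 CPM with the control vector and 167513 to 192195 CPM with the decoy vector, so both groups held fast muscle.

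With the decoy vector, 1947 autosomal genes were higher and 1832 were lower than with the control vector (edgeR's quasi-likelihood test over all 9 libraries, adjusted p under 0.05), which is 10.9% and 10.3% of the autosomal genes tested. The rises were mostly small, with a median of 0.56 on the log2 scale, 338 genes past 2-fold and 89 past 4-fold. The called falls were larger, with a median log2 change of 1.05 in size, 962 genes past 2-fold and 383 past 4-fold. Their standard errors were larger too, with a median of 0.25 against 0.119 for the called rises. A gene with a larger error needs a larger change to be called, so these sizes do not compare rises and falls over all genes. All 3 decoy-vector libraries lay above all 3 control-vector libraries in 1946 of the genes called higher, and below them in 1700 of the genes called lower. Over all tested autosomal genes such complete separation was seen upward in 19.3% and downward in 19%, and the median log2 change was −0.05. The number of calls depended on which libraries entered the fit. With only the 6 compared libraries, 764 genes were called higher and 347 lower, 4.43% and 2.01% of the 17227 tested, and 760 (4.27%) and 344 (1.93%) of these were among the calls of the 9-library fit. Leaving out control-vector library 3 raised the lower calls to 4104, and leaving out decoy-vector library 3 left 538 higher and 251 lower. A core of 522 genes called higher and 223 called lower passed with each of the 9 libraries left out in turn, 2.93% and 1.25% of the tested genes. In what follows a call that kept this status is said to hold without any single library. Counts over gene lists depended on single libraries too: 59 of 62 list counts above 0 moved by over 1.5 times in at least 1 of the 9 omissions. After a list's count, its lowest and highest numbers over these omissions are given.

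**Figure D1:**
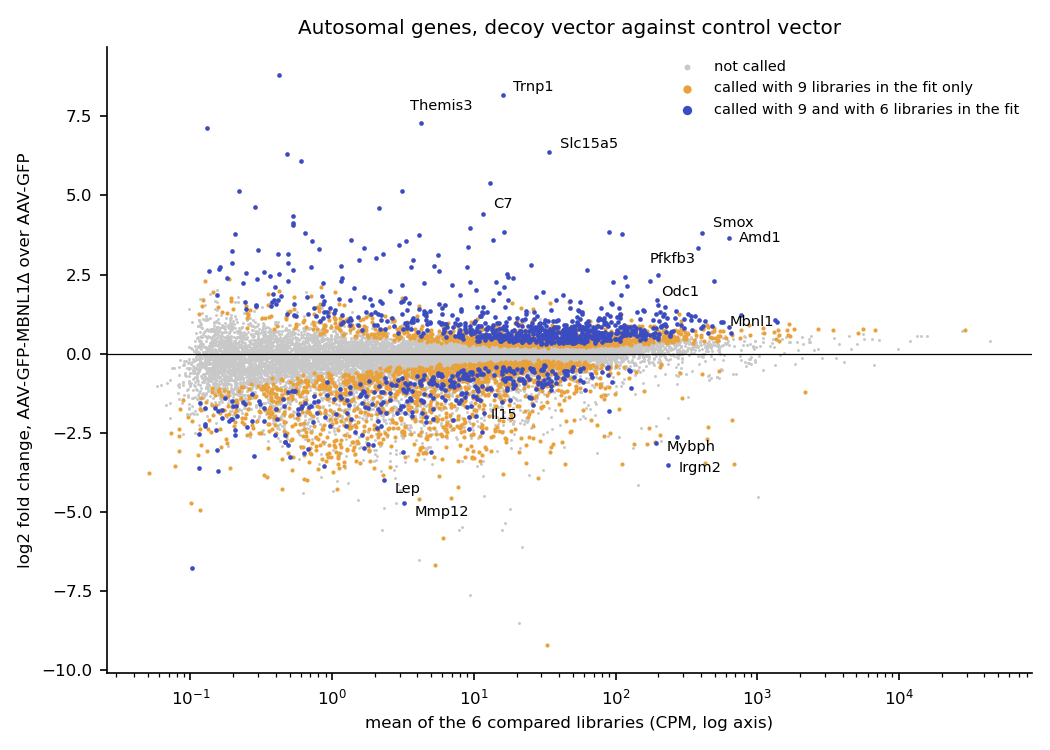
Each point is 1 autosomal gene, with its mean over the 6 compared libraries in CPM on a log axis across and its log2 fold change, decoy vector over control vector, upward. Grey points were not called, orange points were called only with all 9 libraries in the fit, and blue points were called in the fits of 9 and of 6 libraries. Orange points are the majority of calls on both sides of 0. In both fits 760 of the 1947 genes called higher and 344 of the 1832 called lower passed. Above 0 the blue points reach the greatest changes (Trnp1 at 8.17, Smox at 3.798).

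Genes of polyamine metabolism were among the largest increases in abundant transcripts. Polyamines are small cations made from ornithine and S-adenosylmethionine, and in mouse muscle their synthetic enzymes are known to respond to androgens. Of 15 tested polyamine genes, 5 rose, 33.3% against 10.9% of all genes, and none fell. The median of all 15 was only 0.102 on the log2 scale. Over the omissions the rises ran from 5 in 8 of the 9 omissions to 6 without control-vector library 2. The 5 serve separate steps: making putrescine, making S-adenosylmethionine, decarboxylating it (Amd1 and Amd2) and oxidising spermine. The other 10 tested genes were not called. Odc1 (ENSMUSG00000011179, chr12:17544794-17551505, coordinates of GENCODE on GRCm38 throughout), ornithine decarboxylase, which makes putrescine, read 329, 247 and 302 CPM in decoy-vector libraries 1 to 3 against 56.05, 75.1 and 47.8 CPM in control-vector libraries 1 to 3 and 45.7, 48.7 and 46.8 CPM with saline. It was 4.91-fold higher with the decoy vector, a log2 change of 2.295 ± 0.18 (adjusted p = 0.000292). Mat2a (ENSMUSG00000053907, chr6:72432799-72439558), which makes S-adenosylmethionine in tissues other than liver, read 273, 299 and 305 CPM against 144, 154 and 162 CPM, with saline at 154, 193 and 159 CPM, and rose by 0.93 ± 0.11 (adjusted p = 0.00227). Amd1 (ENSMUSG00000075232, chr10:40287458-40302186), S-adenosylmethionine decarboxylase, read 944, 1236 and 1319 CPM against 107, 62.3 and 109 CPM and rose by 3.65 ± 0.25 (adjusted p = 0.000228). Amd2 is a near-identical copy of Amd1, so the division of reads between them is uncertain, and it read 159, 210.2 and 246 CPM against 16.9, 11.5 and 16.7 CPM, a rise of 3.77 ± 0.24 (adjusted p = 0.000186). Smox (ENSMUSG00000027333, chr2:131491496-131525922), spermine oxidase, read 583, 848 and 855 CPM against 56.8, 61.4 and 46.05 CPM, with saline at 61.8, 61.6 and 44.9 CPM, and was 13.9-fold higher (log2 change 3.798 ± 0.22, adjusted p = 0.00012). In all 5 genes the lowest decoy-vector library lay above the highest of the other 6 libraries, and the 5 calls held without any single library. Control-vector library 2 was the highest of its group for Odc1 and Smox and the lowest for Amd1 and Amd2.

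The list of steroid hormone targets overlapped with these genes. Of 17 tested members, 6 rose, among them Odc1, Amd1 and Smox, and 1 fell (35.3% and 5.88%, against 10.9% and 10.3% of all genes). The rises ran from 5 without decoy-vector library 3 to 6 in 8 of the 9 omissions, and the falls from 0 without decoy-vector library 1, 2 or 3 to 5 without control-vector library 2. Sgk1, the kinase induced by serum and glucocorticoids, read 315, 342 and 279.6 CPM with the decoy vector and 134, 127 and 132 CPM with the control vector, a rise of 1.25 ± 0.16 (adjusted p = 0.00274). Fkbp5, a co-chaperone of steroid receptors, read 87.8, 48.5 and 63.7 CPM against 16.8, 23.97 and 14.7 CPM, a rise of 1.85 ± 0.33 (adjusted p = 0.011). Both calls held without any single library, and neither gene's groups overlapped. Such upward separation was seen in 19.3% of all tested autosomal genes. Greb1, first described as an oestrogen-regulated gene, read 1.44, 1.18 and 1.63 CPM against 2.85, 2.69 and 3.099 CPM and fell by 1.02 ± 0.22 on the log2 scale (adjusted p = 0.0177). The call of Greb1 was lost without decoy-vector library 1, 2 or 3 (highest adjusted p = 0.0638). The Xist and Ddx3y values above move with these genes, and the part of sex in them cannot be told apart from that of the vector.

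**Figure D2:**
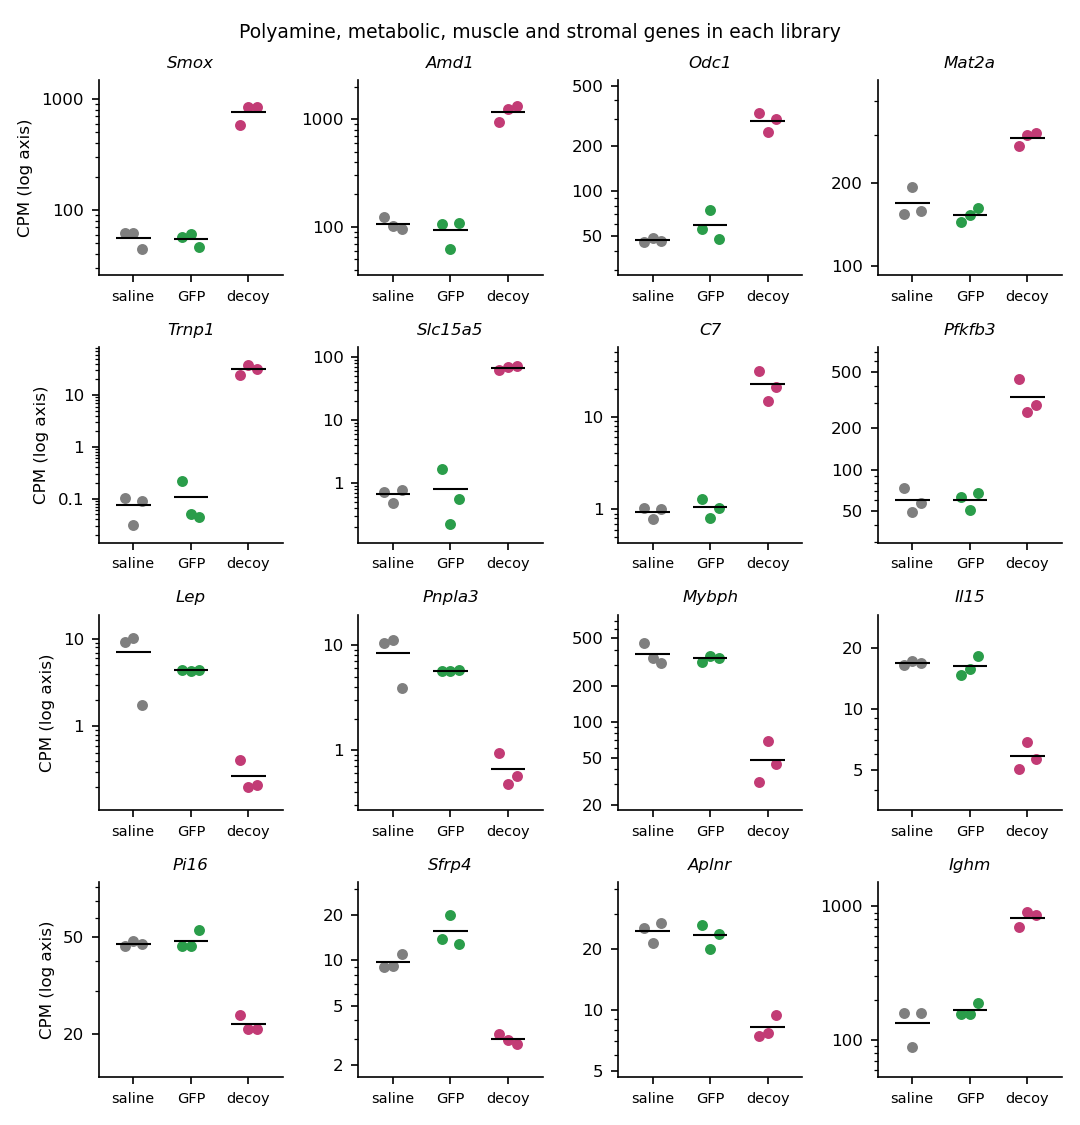
CPM on a log axis in each library for 16 genes, with 3 points per group for saline (grey), control vector (green) and decoy vector (pink) and a line at the mean. In each of the 16 panels the decoy-vector points lie apart from the control-vector points, and for Lep and Pnpla3 the saline points spread more widely than the control-vector points.

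Mbnl1 (ENSMUSG00000027763, chr3:60472830-60629750) itself read 711, 575 and 641 CPM with the decoy vector, 491, 356 and 461 CPM with the control vector and 583, 593 and 445 CPM with saline. The decoy-vector libraries lay above the control-vector libraries, and the lowest of them overlapped the saline range. The rise was 0.56 ± 0.17 on the log2 scale and barely passed (adjusted p = 0.0475). It did not pass with the 6 compared libraries alone (adjusted p = 0.0944) nor with any 1 of the 9 libraries left out (highest adjusted p = 0.135). The counts do not separate the animals' own Mbnl1 from transcripts of the vector, and the share of the latter was not measured. Mbnl2, the other main muscleblind protein of adult muscle, read 322, 277 and 310.1 CPM against 343, 237 and 298 CPM, with a log2 change of 0.05 ± 0.15 (adjusted p = 0.828). Its 95% interval, −0.297 to 0.399, leaves room for changes in either direction.

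Among 37 tested splicing regulators and other RNA-binding proteins, 2 rose and 1 fell, and the median was 0.003. These calls are 5.41% and 2.7% of the list, below the 10.9% and 10.3% of all genes. Across omissions the rises ran from 0 in 6 of the 9 omissions to 3 without control-vector library 3, and the falls from 0 in 6 of the 9 omissions to 5 without control-vector library 3. Besides Mbnl1 the calls were Clk4, a kinase of SR splicing factors, which read 62.3, 68.8 and 61.03 CPM against 50.3, 47.6 and 53.1 CPM, and Hnrnpa1, a splicing repressor, which read 46.1, 53.6 and 45.7 CPM against 56.5, 61.96 and 60.3 CPM. Neither passed in the 6-library fit (adjusted p = 0.0703 and 0.127). With libraries left out in turn, the call of Clk4 was lost in every case but without saline library 2 or 3 or control-vector library 3 (highest adjusted p = 0.102), and that of Hnrnpa1 in every case but without control-vector library 3 or decoy-vector library 2 (highest adjusted p = 0.145). Of 47 tested muscle genes whose splicing MBNL proteins are known to regulate, 7 rose in their total level and 2 fell, 14.9% and 4.26% against 10.9% and 10.3% of all genes. With libraries omitted, the rises ran from 0 without decoy-vector library 3 to 10 without control-vector library 3, and the falls from 0 without decoy-vector library 3 to 3 without control-vector library 2. Map3k4, a kinase of stress signalling, read 62.1, 53.7 and 65.8 CPM against 42.2, 33.2 and 42.9 CPM and rose by 0.62 ± 0.12 (adjusted p = 0.011). Nfix, a transcription factor of fetal muscle, read 483, 386 and 492 CPM against 325, 219 and 288 CPM and rose by 0.71 ± 0.17 (adjusted p = 0.023). Pdlim3, a Z-disc protein, read 474, 431 and 401 CPM against 609, 645 and 648 CPM and fell by 0.54 ± 0.11 on the log2 scale (adjusted p = 0.0153). Obsl1, a relative of the giant muscle protein obscurin, read 49.8, 61.04 and 57.3 CPM against 78.9, 72.2 and 76.1 CPM and fell by 0.44 ± 0.10 on the log2 scale (adjusted p = 0.0183). Map3k4 was the only one of the 9 called in the 6-library fit. Leaving out libraries, the call of Map3k4 was lost without decoy-vector library 3 (adjusted p = 0.0551), that of Nfix without decoy-vector library 1 or 3 (highest adjusted p = 0.0943), that of Pdlim3 without decoy-vector library 2 or 3 (highest adjusted p = 0.0813), and that of Obsl1 without control-vector library 1 or decoy-vector library 1 or 3 (highest adjusted p = 0.0712).

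Several genes went from a trace to a clear level. Trnp1 (ENSMUSG00000056596, chr4:133491100-133498550), a nuclear protein known from neural progenitor cells, read 24.9, 38.8 and 32.02 CPM with the decoy vector, against 0.222, 0.0499 and 0.0443 CPM with the control vector and 0.101, 0.0303 and 0.09102 CPM with saline. The fitted rise was 8.17 ± 0.50 on the log2 scale (adjusted p = 0.000186), the largest among the genes that met the naming rule. Slc15a5, of the peptide transporter family, read 61.5, 69.4 and 70.7 CPM against 1.65, 0.224 and 0.553 CPM (log2 change 6.37 ± 0.59, adjusted p = 0.00103). Themis3, of a family known from thymocytes, read 8.81, 7.13 and 9.26 CPM against 0.119, 0.0125 and 0.0221 CPM (log2 change 7.29 ± 0.57, adjusted p = 0.000333). None of the 21 tested T cell markers rose with it. Mchr1, the receptor for melanin-concentrating hormone, read 4.44, 4.62 and 3.25 CPM against 0.326, 0.112 and 0.0443 CPM, a rise of 4.602 ± 0.51 (adjusted p = 0.00141). In each of these 4 genes every decoy-vector library lay above the other 6 libraries, and the calls held without any single library. Control-vector library 1 was the highest of its group in all 4. The log2 changes of Trnp1, Slc15a5, Themis3 and Mchr1 were 9.33, 7.54, 8.87 and 5.57 without control-vector library 1, against 8.17, 6.37, 7.29 and 4.602 with all libraries. That library also held the highest Ddx3y level outside the decoy-vector libraries, 2.58 CPM, and what part this has in the 4 genes was not tested.

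C7 (ENSMUSG00000079105, chr15:4988762-5063740), a component of the complement membrane attack complex, read 30.9, 14.9 and 20.7 CPM with the decoy vector and 1.305, 0.8102 and 1.04 CPM with the control vector, a 21.1-fold difference (log2 change 4.397 ± 0.31, adjusted p = 0.000241). Of the 15 tested complement genes, Cd55, an inhibitor of complement on cell surfaces, also rose by 0.504 ± 0.14, and C3ar1, a complement receptor of myeloid cells, fell by 2.46 ± 0.74 on the log2 scale. Neither of the last pair was called in the 6-library fit (adjusted p = 0.0982 and 0.118). Among single omissions, the call of Cd55 was lost in every case but without control-vector library 2 or 3 or decoy-vector library 1 (highest adjusted p = 0.114), and that of C3ar1 in every case but without control-vector library 3 (highest adjusted p = 0.151). The log2 change of C3ar1 was −1.12 without control-vector library 2, against −2.46 with all libraries. Complement rises were 13.3% of the list and falls 6.67%, against 10.9% and 10.3% of all genes. The complement rises ran from 1 in 6 of the 9 omissions to 2 without control-vector library 2 or 3 or decoy-vector library 1, and the complement falls from 0 in 6 of the 9 omissions to 8 without control-vector library 3. Slc30a2, a zinc transporter, read 19.8, 14.7 and 18.4 CPM against 1.305, 0.972 and 1.11 CPM, a rise of 3.96 ± 0.22 (adjusted p = 0.00012). Actr3b, a relative of the Arp3 subunit that nucleates actin, had the smallest p-value of all named genes, at 24.5, 32.3 and 34.6 CPM against 2.46, 2.17 and 1.66 CPM and a rise of 3.85 ± 0.19 (adjusted p = 7.09e-05). Ankrd61, an ankyrin repeat protein, read 2.0002, 2.56 and 2.996 CPM against 0.237, 0.199 and 0.177 CPM, a rise of 3.601 ± 0.24 (adjusted p = 0.000186). Smaller but tight increases were seen in Cdk19, a kinase of the Mediator complex, at 71.5, 68.4 and 78.4 CPM against 22.4, 25.2 and 21.7 CPM (adjusted p = 0.00012), and in Rnf126, a ubiquitin ligase of cytosolic quality control, at 68.02, 65.1 and 74.6 CPM against 26.1, 22.6 and 27.9 CPM (adjusted p = 0.00022). Sra1, known as a coactivator of steroid receptors, read 46.4, 44.8 and 43.5 CPM against 20.9, 22.9 and 22.1 CPM, a rise of 1.03 ± 0.07 (adjusted p = 0.000186). C7 and these last 6 genes were also called in the 6-library fit. The naming rule requires that call of genes taken by change or p-value, so it is not separate support. Their calls held without any single library.

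Some genes of sugar use rose. Of 30 tested glycolysis and glycogen genes, 9 rose and 1 fell (30% and 3.33%, against 10.9% and 10.3% of all genes). Their median was 0.42, and 3 rose in the 6-library fit. Under omission the rises ran from 2 without decoy-vector library 2 or 3 to 13 without control-vector library 3, and the falls from 0 in 7 of the 9 omissions to 2 without control-vector library 3. Pfkfb3 makes the fructose bisphosphate that activates glycolysis, and it read 452, 260.5 and 294 CPM against 63.1, 51.04 and 67.4 CPM, with saline at 73.3, 49.97 and 57.8 CPM. It was 5.54-fold higher, a log2 change of 2.47 ± 0.24 (adjusted p = 0.000905). Slc16a3, the transporter that exports lactate from fast fibres, read 262, 303 and 330.1 CPM against 106, 97.9 and 105 CPM, a rise of 1.54 ± 0.14 (adjusted p = 0.000738). Both calls held without any single library, and their decoy-vector values also lay above every saline value. Abundant enzymes of the middle of the pathway rose less, such as Tpi1 by 0.78 ± 0.17 and Gpi1 by 0.58 ± 0.13, and were not called in the 6-library fit (adjusted p = 0.0685 and 0.0673). The member that fell was Slc2a1, a glucose carrier of many cell types, at 11.5, 8.82 and 10.2 CPM against 14.7, 26.9 and 13.3 CPM, where control-vector library 2 was the highest (adjusted p = 0.044, and 0.112 in the 6-library fit). When libraries were omitted singly, the calls of Tpi1 and Gpi1 were lost without control-vector library 1 or decoy-vector library 2 or 3 (highest adjusted p = 0.0792 and 0.0829), and that of Slc2a1 in every case but without control-vector library 2 or 3 (highest adjusted p = 0.132).

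Several enzymes of fat synthesis fell, while Srebf1, a gene that regulates them, rose. Of 25 tested genes of fatty acid and sterol synthesis, 13 fell and 2 rose (52% and 8%, against 10.3% and 10.9% of all genes). Their median was −0.53, and 6 fell in the 6-library fit. Over all omissions the rises ran from 1 in 7 of the 9 omissions to 3 without control-vector library 3, and the falls from 4 without decoy-vector library 2 or 3 to 16 without control-vector library 3. Elovl6, which lengthens palmitate, read 2.08, 1.73 and 1.303 CPM against 7.53, 7.37 and 7.704 CPM and fell by 2.14 ± 0.30 on the log2 scale (adjusted p = 0.00417). Acly, which supplies cytosolic acetyl-CoA, read 28.9, 22.2 and 23.3 CPM against 42.8, 51.3 and 40.8 CPM and fell by 0.86 ± 0.15 (adjusted p = 0.00783). Pnpla3, a lipid droplet protein controlled by feeding, read 0.932, 0.473 and 0.569 CPM against 5.62, 5.62 and 5.78 CPM and was 8.56-fold lower (adjusted p = 0.00405). Scd1, the desaturase of stearate, read 137, 46.6 and 41.1 CPM against 494, 377 and 526 CPM, with saline at 957, 1037 and 266 CPM, and fell by 2.64 ± 0.62 (adjusted p = 0.0248). Under single omissions the call of Scd1 was lost without control-vector library 1 or 2 or decoy-vector library 2 or 3 (highest adjusted p = 0.0938). The log2 change of Scd1 was −3.405 without decoy-vector library 1, against −2.64 with all libraries. Srebf1, which encodes the transcription factor that switches on this pathway, moved the other way, at 64.7, 45.8 and 49.9 CPM against 23.1, 29.1 and 24.1 CPM, a rise of 1.07 ± 0.15 (adjusted p = 0.00409). The groups did not overlap in any of these 5 genes, a separation seen upward in 19.3% and downward in 19% of all tested autosomal genes. The calls of Elovl6, Acly, Pnpla3 and Srebf1 held without any single library.

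Some adipocyte genes fell too. Of 15 tested members 6 fell and 1 rose (40% and 6.67%, against 10.3% and 10.9% of all genes), with a median of −1.202. Over the omissions the falls ran from 1 without decoy-vector library 3 to 8 without decoy-vector library 1. Lep (ENSMUSG00000059201, chr6:29060220-29073877), the fat cell hormone leptin, read 0.406, 0.2001 and 0.2097 CPM with the decoy vector, 4.42, 4.28 and 4.43 CPM with the control vector and 9.297, 10.4 and 1.74 CPM with saline, a 15.9-fold difference between the vectors (log2 change −3.99 ± 0.66, adjusted p = 0.00828). Adrb3, the beta-adrenergic receptor of fat cells, read 0.211, 0.0909 and 0.0899 CPM against 0.667, 0.823 and 0.908 CPM and fell by 2.58 ± 0.47 on the log2 scale (adjusted p = 0.00979). Both were called in the 6-library fit. Car3, a carbonic anhydrase that is abundant in fat and in slow fibres, read 1331, 1345 and 1298 CPM against 3377, 1949 and 3818 CPM (adjusted p = 0.0127, and 0.056 in the 6-library fit). Pnpla2, the main triglyceride lipase, which muscle also makes, was the member that rose, at 237, 209 and 257 CPM against 165, 160.2 and 167 CPM (adjusted p = 0.0147). The calls of Adrb3, Car3 and Pnpla2 were lost without decoy-vector library 3 (adjusted p = 0.0537, 0.066 and 0.0689). The call of Lep held without any single library, although the third saline library lay below all 3 control-vector libraries. In whole muscle, fewer cells of a type and less RNA per cell cannot be told apart, here and in every cell type list below.

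Rises in mitochondrial energy metabolism were about as frequent as among all genes. Of 47 tested nuclear genes of oxidative phosphorylation, 6 rose and none fell (12.8% and 0%, against 10.9% and 10.3% of all genes), with a median of 0.29, and of 28 tested fatty acid oxidation genes 3 rose and none fell (10.7% and 0%). The oxidative phosphorylation rises ran from 1 without decoy-vector library 2 or 3 to 15 without control-vector library 3, and the fatty acid oxidation rises from 0 without decoy-vector library 2 or 3 to 8 without control-vector library 3. Ucp3, the mitochondrial uncoupling protein of muscle, read 138, 195 and 192 CPM against 89.7, 57.6 and 104 CPM and rose by 1.06 ± 0.22 (adjusted p = 0.0167, and 0.0574 in the 6-library fit). With libraries left out in turn, the call of Ucp3 was lost without decoy-vector library 2 or 3 (highest adjusted p = 0.0725). Ak4, a mitochondrial adenylate kinase, went the other way, at 5.01, 4.89 and 5.29 CPM against 21.4, 13.6 and 20.9 CPM, and fell by 1.88 ± 0.17 on the log2 scale (adjusted p = 0.00055). That call held without any single library.

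In insulin signalling 3 of 26 tested genes rose and 7 fell, of which 2 and 4 were called in the 6-library fit. These are 11.5% and 26.9% of the list, against 10.9% and 10.3% of all genes. Across omissions the rises ran from 1 without decoy-vector library 3 to 4 without control-vector library 2, and the falls from 3 without control-vector library 1 or decoy-vector library 2 or 3 to 9 without control-vector library 2. Irs2, an adaptor of the insulin receptor, read 58.98, 38.4 and 55.7 CPM against 22.02, 18.02 and 18.3 CPM and rose by 1.39 ± 0.16 (adjusted p = 0.00145). Pik3r1, the regulatory subunit of phosphoinositide kinase, read 35.2, 28.5 and 30.7 CPM against 56.5, 52.2 and 51.2 CPM and fell by 0.76 ± 0.09 on the log2 scale (adjusted p = 0.00233). Akt2, the insulin-responsive Akt kinase, rose by 0.58 ± 0.11 (adjusted p = 0.0104), and Igfbp3, a carrier of insulin-like growth factors, fell by 0.67 ± 0.11 on the log2 scale (adjusted p = 0.00771). Leaving out libraries, the call of Akt2 was lost without decoy-vector library 3 (adjusted p = 0.0535). The calls of Irs2, Pik3r1 and Igfbp3 held without any single library.

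Some fast fibre genes rose with all 9 libraries in the fit. Of 19 tested fast fibre genes, 6 rose and none fell (31.6% against 10.9% of all genes), with a median of 0.56, and 2 rose in the 6-library fit. With libraries omitted, the fast fibre rises ran from 0 without decoy-vector library 3 to 9 without control-vector library 3. Mylk2, the myosin light chain kinase of skeletal muscle, read 1035, 1015 and 1172 CPM against 492, 290.3 and 583 CPM and rose by 1.24 ± 0.24 (adjusted p = 0.0127). Gpd1, the cytosolic glycerol phosphate dehydrogenase, read 724, 850.4 and 852 CPM against 477, 417 and 448 CPM and rose by 0.85 ± 0.16 (adjusted p = 0.0103). Of 18 tested slow fibre genes only Pln was called, the inhibitor of the slow calcium pump, and it fell from 11.5, 10.2 and 22.8 CPM to 4.05, 3.13 and 3.97 CPM, 3.98-fold lower (adjusted p = 0.0154), with saline at 12.1, 11.3 and 24.8 CPM. The slow fibre falls ran from 0 without decoy-vector library 2 or 3 to 6 without control-vector library 2. The slow fibre median was −0.61, and the slow genes summed to 7016 to 14177 CPM with the control vector and 7571 to 9707 CPM with the decoy vector, which overlap. Among single omissions, the calls of Mylk2 and Gpd1 were lost without decoy-vector library 3 (adjusted p = 0.06 and 0.0519), and that of Pln without decoy-vector library 2 or 3 (highest adjusted p = 0.065). Control-vector library 2 had the lowest fast fibre sum, 95503 CPM, and the highest macrophage marker sum, 3604 CPM.

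Genes of calcium release held more rises than falls, and those of the fibre membrane moved in both directions. Of 26 tested excitation-contraction coupling genes, 10 rose and 1 fell (38.5% and 3.85%, against 10.9% and 10.3% of all genes). Their median was 0.36, and 2 rose in the 6-library fit. Under omission the rises ran from 1 without decoy-vector library 3 to 11 without control-vector library 2 or 3, and the falls from 0 without decoy-vector library 2 or 3 to 2 without saline library 3 or control-vector library 2. Jph2, which ties the transverse tubule to the calcium store, read 763, 794 and 837 CPM against 519, 449 and 537 CPM and rose by 0.67 ± 0.12 (adjusted p = 0.0102). Ryr3, the minor calcium release channel of muscle, read 3.504, 5.91 and 4.39 CPM against 1.19, 1.77 and 1.46 CPM and rose by 1.64 ± 0.23 (adjusted p = 0.00381). In the dystrophin complex 4 of 18 tested genes rose and 3 fell (22.2% and 16.7%, against 10.9% and 10.3% of all genes). Without control-vector library 2 the order was reversed, with 3 rises and 4 falls. Over all omissions the rises of this complex ran from 2 without decoy-vector library 2 or 3 to 5 without control-vector library 3, and the falls from 0 without decoy-vector library 3 to 4 without control-vector library 2. Cav3, the muscle caveolin, read 39.5, 46.6 and 40.8 CPM against 25.1, 23.2 and 26.6 CPM and rose by 0.76 ± 0.09 (adjusted p = 0.00145). Sntb2, a syntrophin more common outside muscle, fell by 0.62 ± 0.12 on the log2 scale (adjusted p = 0.012, and 0.0525 in the 6-library fit). When libraries were omitted singly, the calls of Jph2 and Sntb2 were lost without decoy-vector library 3 (adjusted p = 0.0537 and 0.0567). Of 32 tested sarcomere genes 4 rose, 12.5% against 10.9% of all genes, none of them in the 6-library fit. Over the omissions the sarcomere rises ran from 0 without control-vector library 1 or decoy-vector library 1, 2 or 3 to 11 without control-vector library 3. Acta1, the actin of the thin filament, was the most abundant of these at 33576, 37530 and 39416 CPM against 23589, 16856 and 24691 CPM (adjusted p = 0.0319, and 0.0978 in the 6-library fit). Under single omissions the call of Acta1 was lost in every case but without control-vector library 2 or 3 (highest adjusted p = 0.122).

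Regulators of muscle growth included some of the clearest single changes. Mstn (ENSMUSG00000026100, chr1:53061640-53068079), myostatin, the secreted inhibitor of muscle growth, read 135, 134 and 153 CPM with the decoy vector, 50.6, 34.03 and 54.5 CPM with the control vector and 74.01, 70.4 and 48.3 CPM with saline, a 3.04-fold difference between the vectors (log2 change 1.603 ± 0.21, adjusted p = 0.00305). Inhba, which encodes a subunit of activins, which are related ligands, read 3.79, 3.47 and 3.57 CPM against 7.03, 5.596 and 7.28 CPM and fell by 0.88 ± 0.14 on the log2 scale (adjusted p = 0.0064). Of the 29 tested atrophy and FOXO target genes, 5 rose and 4 fell (17.2% and 13.8%, against 10.9% and 10.3% of all genes). The rises ran from 3 without decoy-vector library 3 to 5 without saline library 3 or control-vector library 2 or 3, and the falls from 2 without decoy-vector library 1, 2 or 3 to 6 without control-vector library 3. Map1lc3a, a membrane protein of autophagosomes, read 139, 157 and 144 CPM against 60.1, 65.9 and 74.01 CPM and rose by 1.14 ± 0.10 (adjusted p = 0.000627), and Sesn1, a stress-induced sestrin, read 21.2, 20.6 and 23.2 CPM against 44.96, 33.96 and 47 CPM and fell by 0.95 ± 0.16 on the log2 scale (adjusted p = 0.0082). These 4 calls held without any single library.

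Mybph (ENSMUSG00000042451, chr1:134193448-134201232), a myosin-binding protein of the sarcomere, read 31.4, 68.5 and 44.7 CPM against 314, 356 and 345 CPM and 458, 342 and 311 CPM with saline, 7.02-fold lower than with the control vector (log2 change −2.81 ± 0.28, adjusted p = 0.00103). Of the other 13 tested genes of developing or regenerating fibres only Vim, vimentin, was called, at 177, 161 and 146 CPM against 324, 711 and 250.01 CPM, where control-vector library 2 was the highest (adjusted p = 0.0281, and 0.0829 in the 6-library fit). Across omissions the falls of this list ran from 1 without saline library 2 or decoy-vector library 1, 2 or 3 to 3 without saline library 3 or control-vector library 3. Among 21 tested satellite cell and myogenic genes 4 rose and 1 fell (19% and 4.76%, against 10.9% and 10.3% of all genes). With libraries omitted, the rises ran from 1 without decoy-vector library 3 to 6 without control-vector library 2, and the falls from 0 without decoy-vector library 2 or 3 to 2 without control-vector library 3. Myod1, the myogenic transcription factor, read 41.4, 44.1 and 35.7 CPM against 28.6, 26.6 and 27.01 CPM and rose by 0.56 ± 0.10 (adjusted p = 0.00779). Myog, myogenin, which acts later in differentiation and rises after denervation, read 14.1, 12.7 and 9.74 CPM against 19.7, 31.5 and 20.2 CPM and fell by 0.97 ± 0.20 on the log2 scale (adjusted p = 0.0167, and 0.0599 in the 6-library fit). Pax7, the marker of satellite cells, read 1.89, 1.91 and 2.41 CPM against 1.23, 1.33 and 1.04 CPM (adjusted p = 0.0254, and 0.0588 in the 6-library fit). Of 19 tested genes of the neuromuscular junction and denervation, 2 rose and 3 fell (10.5% and 15.8%, against 10.9% and 10.3% of all genes). Musk, the receptor kinase that organises the junction, rose by 0.74 ± 0.16 (adjusted p = 0.0182). The junction rises ran from 0 without decoy-vector library 1 or 3 to 5 without control-vector library 2, and the junction falls from 0 without decoy-vector library 2 or 3 to 7 without control-vector library 3. The call of Vim was lost without saline library 2 or decoy-vector library 1, 2 or 3 (highest adjusted p = 0.107), that of Myog without decoy-vector library 2 or 3 (highest adjusted p = 0.0703), that of Pax7 without control-vector library 1 or decoy-vector library 1, 2 or 3 (highest adjusted p = 0.103), and that of Musk without decoy-vector library 1 or 3 (highest adjusted p = 0.0795). The log2 change of Vim was −0.82 without control-vector library 2, against −1.41 with all libraries. The calls of Mybph and Myod1 held without any single library.

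The circadian clock list held 9 rises and 1 fall among 19 tested genes (47.4% and 5.26%, against 10.9% and 10.3% of all genes). Its median was 0.38, and it held 6 rises in the 6-library fit. Under omission the clock rises ran from 5 without decoy-vector library 3 to 12 without control-vector library 3, and the clock falls from 0 in 7 of the 9 omissions to 2 without control-vector library 3. Bhlhe41, a repressor in the clock loop, read 74.8, 90.1 and 90.5 CPM against 25.4, 30.9 and 25.4 CPM, with saline at 29.4, 28.4 and 25.1 CPM, and was 3.12-fold higher (adjusted p = 0.000231). Dbp, a transcription factor of the clock's output, read 139, 150.4 and 178 CPM against 51.6, 44.5 and 74.98 CPM and rose by 1.45 ± 0.20 (adjusted p = 0.00372). Nr1d1, the nuclear receptor that represses Bmal1, read 126, 84.4 and 139 CPM against 38.8, 37.4 and 52.2 CPM and rose by 1.44 ± 0.21 (adjusted p = 0.00501). Usp2, a ubiquitin protease under clock control, read 430.2, 369.99 and 449.6 CPM against 215, 153 and 213 CPM and rose by 1.11 ± 0.16 (adjusted p = 0.00454). Ciart, a further repressor, read 12.7, 13.3 and 20.4 CPM against 1.53, 2.34 and 3.03 CPM and rose by 2.75 ± 0.41 (adjusted p = 0.00605). Npas2, a partner of Bmal1 on the activating side, was the member that fell, at 0.812, 0.709 and 0.599 CPM against 1.44, 1.097 and 1.04 CPM (adjusted p = 0.043, and 0.101 in the 6-library fit). With libraries left out in turn, the call of Npas2 was lost in every case but without control-vector library 2 or 3 (highest adjusted p = 0.15). The calls of Bhlhe41, Dbp, Nr1d1, Usp2 and Ciart held without any single library. The sources used here do not give the hour at which each muscle was taken.

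Clock activators bind the E-box CACGTG, and the 250 bases before the start of Bhlhe41 and of Ciart show where it stands in members of this list that rose. The windows come from RefSeq (GRCm38.p6) and are written 5′ to 3′ on the strand of the gene, with the E-box in capitals. That of Bhlhe41 is chr6:145865421-145865670 on the minus strand and holds 1 E-box, and that of Ciart is chr3:95882229-95882478 on the minus strand and holds 3.
Bhlhe41: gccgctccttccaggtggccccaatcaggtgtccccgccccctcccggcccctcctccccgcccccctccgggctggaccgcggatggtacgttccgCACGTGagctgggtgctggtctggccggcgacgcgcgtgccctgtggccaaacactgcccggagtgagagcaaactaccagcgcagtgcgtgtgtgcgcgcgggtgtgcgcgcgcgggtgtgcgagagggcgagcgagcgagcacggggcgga
Ciart: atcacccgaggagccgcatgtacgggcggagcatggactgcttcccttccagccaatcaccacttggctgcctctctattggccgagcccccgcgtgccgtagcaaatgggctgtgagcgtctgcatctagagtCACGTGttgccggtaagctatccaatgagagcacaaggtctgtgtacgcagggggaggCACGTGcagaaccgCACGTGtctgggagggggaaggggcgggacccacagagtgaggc
The E-box, whose letters read the same on both strands, stood in the window of 5 of the 16 clock genes matched to a promoter, Bhlhe41, Ciart, Cry1, Per1 and Tef, which is 28.6% of their 21 promoters. It stood in 6.02% of all 31356 autosomal promoters of this length. The D-box TTATGTAA, read on both strands, which Dbp binds, stood in none of the 21 and in 0.829% of all.

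Heat shock genes held rises and no fall: 11 of 24 tested members were higher, 45.8% against 10.9% of all genes. Their median was 0.32, and 4 were higher in the 6-library fit. Over all omissions the rises ran from 5 without control-vector library 1 to 11 without control-vector library 2. Hspa1a, an inducible Hsp70 with a near-identical neighbour, Hspa1b, read 22.4, 13.4 and 10.5 CPM against 5.74, 4.62 and 6.49 CPM and rose by 1.46 ± 0.29 (adjusted p = 0.0149). Dnajb1, its inducible co-chaperone, read 33.4, 24.2 and 22.7 CPM against 13.1, 15.9 and 14.01 CPM and rose by 0.902 ± 0.15 (adjusted p = 0.00772). Hsph1 rose by 0.84 ± 0.15 (adjusted p = 0.00913) and Hsf1, the transcription factor that drives the response, by 0.57 ± 0.10 (adjusted p = 0.00841). These 4 calls held without any single library. The unfolded protein and amino acid stress list held more falls than rises. Of 26 tested members 8 were lower and 1 higher (30.8% and 3.85%, against 10.3% and 10.9% of all genes). Over the omissions the falls ran from 1 without decoy-vector library 1, 2 or 3 to 16 without control-vector library 3, and the rises of this list from 0 without decoy-vector library 1, 2 or 3 to 2 without control-vector library 2. Asns, asparagine synthetase, fell by 1.22 ± 0.19 on the log2 scale (adjusted p = 0.00644), and Xbp1, a transcription factor of the unfolded protein response and of plasma cells, read 58.7, 56.98 and 58.3 CPM against 115, 210.1 and 97.1 CPM, with control-vector library 2 the highest (adjusted p = 0.015, and 0.0537 in the 6-library fit). Leaving out libraries, the call of Xbp1 was lost without decoy-vector library 1, 2 or 3 (highest adjusted p = 0.0666).

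Among 22 tested immediate early genes 4 rose and 6 fell (18.2% and 27.3%, against 10.9% and 10.3% of all genes). The rises ran from 1 without control-vector library 1 or decoy-vector library 3 to 4 without saline library 1 or 3 or control-vector library 3, and the falls from 1 without decoy-vector library 2 to 10 without control-vector library 3. Nr4a1, an orphan receptor induced by contraction, read 254, 204 and 355 CPM against 102, 97.6 and 145 CPM and rose by 1.24 ± 0.26 (adjusted p = 0.0169), and Fosl2, an AP-1 subunit, read 50.2, 48.4 and 55.9 CPM against 33.6, 37.03 and 28.7 CPM and rose by 0.64 ± 0.10 (adjusted p = 0.00625). Myc, a transcription factor of cell growth, read 4.26, 3.62 and 3.87 CPM against 8.35, 10.97 and 6.58 CPM and fell by 1.14 ± 0.18 on the log2 scale (adjusted p = 0.00576). Gadd45b, a stress-induced growth arrest gene, read 4.903, 5.02 and 6.802 CPM against 12.6, 16.9 and 13.04 CPM and fell by 1.35 ± 0.18 on the log2 scale (adjusted p = 0.00302). Among single omissions, the call of Nr4a1 was lost without control-vector library 1 or decoy-vector library 3 (highest adjusted p = 0.0665). The calls of Fosl2, Myc and Gadd45b held without any single library.

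Connective tissue genes fell in part. Of 15 tested markers of fibroblasts and fibro-adipogenic progenitors, 7 fell and none rose (46.7% and 0%, against 10.3% and 10.9% of all genes). In the 6-library fit 3 fell. Across omissions the falls ran from 3 without decoy-vector library 1 or 3 to 8 without control-vector library 2 or 3. Pi16, a marker of the progenitor end of these cells, read 24.1, 20.95 and 21.03 CPM with the decoy vector, 45.8, 45.98 and 53.4 CPM with the control vector and 46.1, 48.3 and 46.7 CPM with saline, 2.197-fold lower than with the control vector (log2 change −1.14 ± 0.09, adjusted p = 0.000304). Dpp4, a surface peptidase of the same cells, read 6.87, 5.98 and 7.42 CPM against 12.3, 12.1 and 11.6 CPM and fell by 0.83 ± 0.13 on the log2 scale (adjusted p = 0.00525). Mfap5, a microfibril protein, read 17.01, 17.6 and 17.5 CPM against 29.98, 50.8 and 31.99 CPM and fell by 1.12 ± 0.19 on the log2 scale (adjusted p = 0.00803). All markers of the list together summed to 1863 to 2144 CPM with the control vector and 2055 to 2186 CPM with the decoy vector, which overlap. Of 32 tested matrix genes 6 fell and 1 rose (18.8% and 3.13%). With libraries omitted, the matrix falls ran from 2 without decoy-vector library 2 or 3 to 14 without control-vector library 3. Col14a1, a collagen on the surface of fibrils, read 14.001, 10.9 and 13.5 CPM against 33.7, 55.5 and 28.03 CPM and fell by 1.61 ± 0.27 on the log2 scale (adjusted p = 0.0086), and Col8a1 fell by 1.09 ± 0.16 (adjusted p = 0.00439). All 5 genes named here kept their calls without any single library.

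Further secreted and membrane proteins were among the falls with the smallest p-values. Sfrp4, a secreted antagonist of Wnt, read 3.25, 2.96 and 2.76 CPM against 13.9, 20.04 and 12.95 CPM, with saline at 9.11, 9.15 and 11.1 CPM, and was 5.23-fold lower (adjusted p = 0.000292). Itih5, a protein that binds hyaluronan, read 41.7, 38.4 and 42.2 CPM against 74.9, 79.8 and 73.7 CPM (adjusted p = 0.00103). Retnla, a resistin-like protein of fat and of alternatively activated macrophages, read 13.4, 14.7 and 13.6 CPM against 33.1, 37.3 and 38.8 CPM and fell by 1.39 ± 0.09 on the log2 scale (adjusted p = 0.000186). Il15, a cytokine made by muscle that sustains memory T cells and natural killer cells, read 5.08, 6.86 and 5.65 CPM against 14.7, 15.7 and 18.2 CPM, with saline at 16.4, 17.2 and 16.8 CPM, and fell by 1.46 ± 0.13 on the log2 scale (adjusted p = 0.000536). Aplnr, the apelin receptor, read 7.43, 7.73 and 9.498 CPM against 26.4, 20.1 and 23.98 CPM, with saline at 25.6, 21.5 and 26.9 CPM, and was 2.85-fold lower (adjusted p = 0.000757). It was the only one of 19 tested endothelial genes to be called with all libraries. The endothelial falls ran from 1 in 7 of the 9 omissions to 3 without control-vector library 2 or 3. Lrrc55, an accessory subunit of a potassium channel, read 1.04, 1.0003 and 1.02 CPM against 3.86, 3.89 and 3.52 CPM (adjusted p = 0.000292). In these 6 genes the decoy-vector libraries lay below all saline libraries as well, and the 6 calls held without any single library.

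Interferon-stimulated genes were the list with the most falls: 29 of 34 tested members were lower and none was higher (85.3% against 10.3% of all genes), with a median of −2.01, and 9 were lower in the 6-library fit. Under omission the falls ran from 5 without decoy-vector library 3 to 32 without control-vector library 3. Isg15, a ubiquitin-like antiviral modifier, read 0.451, 0.473 and 0.3895 CPM with the decoy vector, 1.898, 5.995 and 1.57 CPM with the control vector and 0.592, 0.4997 and 0.676 CPM with saline, 7.23-fold lower than with the control vector (adjusted p = 0.00925). Ifi44 read 0.361, 0.4001 and 0.3895 CPM against 1.99, 5.198 and 1.79 CPM, with saline at 0.808, 0.878 and 1.01 CPM, and fell by 2.97 ± 0.41 on the log2 scale (adjusted p = 0.00395). Rtp4, which restrains some RNA viruses, read 3.04, 2.62 and 2.397 CPM against 10.1, 17.4 and 6.86 CPM (adjusted p = 0.00863). Cmpk2, a mitochondrial nucleotide kinase, fell by 1.26 ± 0.20 on the log2 scale (adjusted p = 0.0065), and Eif2ak2, the kinase PKR that senses double-stranded RNA, fell by 1.17 ± 0.21 (adjusted p = 0.00899). In these 5 genes control-vector library 2 was the highest of the 6 libraries, and in all but Rtp4 every decoy-vector library also lay below every saline library. When libraries were omitted singly, the call of Isg15 was lost without decoy-vector library 3 (adjusted p = 0.0524). The log2 changes of Isg15 and Ifi44 were −1.98 and −2.29 without control-vector library 2, against −2.85 and −2.97 with all libraries. The other 4 calls held without any single library. The list summed to 390 to 1199 CPM with the control vector and 255 to 309 CPM with the decoy vector, and saline stood at 238 to 287 CPM.

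The interferon-induced GTPases, which attack vacuoles that hold intracellular pathogens, fell in every tested member with all 9 libraries in the fit. All 11 tested members were lower, with a median of −2.96, and 5 further members are listed at 0 in all 6 libraries. Cox4i1 of the oxidative phosphorylation list and Rpl13 of the ribosomal list also stood at 0 in all 6 libraries. Whether such readings reflect absent transcripts or the way reads were counted was not tested, so they do not show that these members were silent. Over all omissions the falls ran from 0 without decoy-vector library 3 to 11 without saline library 3 or control-vector library 3. They numbered 8 without control-vector library 1 and 5 without control-vector library 2. Irgm2 (ENSMUSG00000069874, chr11:58199618-58222782) read 53.4, 37.9 and 20.9 CPM with the decoy vector, 494, 678 and 123 CPM with the control vector and 28.8, 13.1 and 33.01 CPM with saline, 11.5-fold lower than with the control vector (adjusted p = 0.0135). It was the only one of the 11 called in the 6-library fit (adjusted p = 0.0448). Irgm1 read 40.6, 34.3 and 24.5 CPM against 211, 436 and 66.6 CPM (adjusted p = 0.0176, and 0.0609 in the 6-library fit), and Gbp5, a guanylate-binding protein, read 7.399, 8.58 and 4.21 CPM against 34.5, 75.2 and 16.01 CPM (adjusted p = 0.0194, and 0.0584). The decoy-vector libraries lay below every control-vector library in all 11 genes, against 19% of all tested autosomal genes. The control-vector libraries spread 5.52-fold among themselves for Irgm2. Under single omissions the call of Irgm2 was lost without decoy-vector library 3 (adjusted p = 0.0617), and those of Irgm1 and Gbp5 without decoy-vector library 1, 2 or 3 (highest adjusted p = 0.079 and 0.0822). The log2 changes of Irgm1 and Gbp5 were −2.06 and −1.903 without control-vector library 2, against −2.84 and −2.64 with all libraries. With the untested members, the family summed to 511 to 3529 CPM with the control vector, 131 to 290 CPM with the decoy vector and 91.2 to 176 CPM with saline.

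Genes of these lists are known to carry the interferon-stimulated response element, and 3 windows are shown for members that fell. They are the 250 bases before the RefSeq start (GRCm38.p6), 5′ to 3′ on the strand of the gene, with capitals for the core, which is GAAA, then 2 bases of any kind, then GAAA, searched on both strands, so that the reverse strand reads TTTC, 2 bases, TTTC. The window of Irgm2 is chr11:58214727-58214976 on the plus strand, that of Gbp5 is chr3:142496684-142496933 on the plus strand and that of Isg15 is chr4:156200819-156201068 on the minus strand.
Irgm2: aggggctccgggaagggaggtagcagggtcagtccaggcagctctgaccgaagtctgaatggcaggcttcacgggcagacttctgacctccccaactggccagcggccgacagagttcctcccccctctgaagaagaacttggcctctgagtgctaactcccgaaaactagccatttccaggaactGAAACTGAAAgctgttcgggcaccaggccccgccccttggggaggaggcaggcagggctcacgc
Gbp5: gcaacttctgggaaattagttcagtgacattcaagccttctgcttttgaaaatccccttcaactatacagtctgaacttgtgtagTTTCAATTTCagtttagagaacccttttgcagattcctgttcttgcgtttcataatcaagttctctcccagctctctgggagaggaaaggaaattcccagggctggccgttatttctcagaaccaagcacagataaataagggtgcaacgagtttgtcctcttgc
Isg15: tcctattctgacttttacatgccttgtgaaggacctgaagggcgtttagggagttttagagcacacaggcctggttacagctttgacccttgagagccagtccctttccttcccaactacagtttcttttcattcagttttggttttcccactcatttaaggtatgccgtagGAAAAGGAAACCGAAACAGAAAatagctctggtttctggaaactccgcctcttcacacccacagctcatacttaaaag
The core stood in the windows of all 7 GTPase genes that were matched to a promoter, in 87.5% of their 8 promoters. It stood in 10 of the 26 matched interferon-stimulated genes, 30.3% of 33 promoters, and in 2.97% of all 31356 autosomal promoters of this length. Isg15 holds 3 overlapping or adjacent matches and the other 2 windows hold 1 each.

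**Figure D3:**
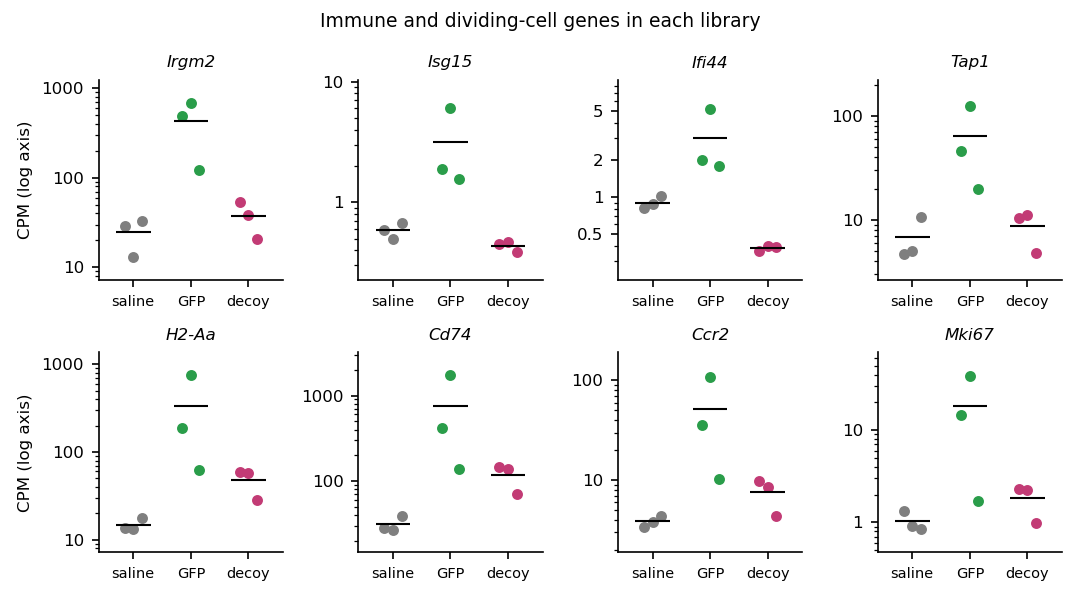
CPM on a log axis in each library for 8 genes of interferon response, antigen presentation, myeloid cells and dividing cells, with 3 points per group and a line at the mean. The 3 control-vector points spread widely in every panel, library 2 is the highest in each, and the decoy-vector points lie near saline for Isg15 and between saline and control vector for Ccr2.

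Genes of antigen presentation fell as well, again with control-vector library 2 the highest. Of 20 tested genes of MHC class I and peptide loading, 18 fell, 90% against 10.3% of all genes, and none rose. The median was −2.26, and none passed in the 6-library fit. Tap1, the peptide transporter, read 10.5, 11.02 and 4.81 CPM against 46.4, 125 and 19.8 CPM, with saline at 4.65, 4.997 and 10.6 CPM (adjusted p = 0.0271, and 0.0702 in the 6-library fit). Psmb9, an immunoproteasome subunit, read 4.99, 5.17 and 3.22 CPM against 19.2, 59.2 and 8.55 CPM (adjusted p = 0.0278, and 0.0754). Of 13 tested MHC class II genes 5 fell, 38.5% against 10.3% of all genes, none of them in the 6-library fit. H2-Aa, a class II chain, read 58.8, 57.2 and 28.7 CPM against 187, 749 and 63.2 CPM (adjusted p = 0.0421), and Cd74, the invariant chain, read 146, 136 and 70.8 CPM against 415, 1738 and 137 CPM (adjusted p = 0.0484). For Cd74 the lowest control-vector library lay within the decoy-vector range. The call of Tap1 was lost without control-vector library 2 or decoy-vector library 1, 2 or 3 (highest adjusted p = 0.101), that of Psmb9 without decoy-vector library 1, 2 or 3 (highest adjusted p = 0.107), and those of H2-Aa and Cd74 in every case but without control-vector library 3 (highest adjusted p = 0.14 and 0.165). The log2 changes of Tap1, Psmb9, H2-Aa and Cd74 were −1.91, −1.64, −1.37 and −1.21 without control-vector library 2, against −2.87, −2.704, −2.79 and −2.696 with all libraries. Over the omissions the class I falls ran from 0 without decoy-vector library 1, 2 or 3 to 20 without control-vector library 3, and the class II falls from 0 in 8 of the 9 omissions to 13 without control-vector library 3. Without control-vector libraries 1 and 2 in turn, 7 and 9 class I genes and no class II genes fell.

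Immune cell markers were lower in the decoy-vector libraries than in control-vector libraries 1 and 2 and near control-vector library 3. Of 26 tested monocyte and macrophage markers 7 fell (26.9%), and of 10 dendritic cell markers 4 (40%). Of 15 cytotoxic and natural killer markers 2 fell (13.3%), and of 21 T cell markers none. Over all genes 10.3% fell, which is near the share of the cytotoxic list. No marker of these lists passed in the 6-library fit. At an unadjusted p under 0.05, 12 T cell markers were lower, and DESeq2 called 10 T cell markers lower. Ccr2, the receptor that brings monocytes into tissue, read 9.73, 8.55 and 4.37 CPM against 35.8, 108 and 10.3 CPM, with saline at 3.36, 3.85 and 4.36 CPM (adjusted p = 0.0364). Xcr1, the receptor of cross-presenting dendritic cells, read 0.466, 0.455 and 0.225 CPM against 2.34, 4.67 and 0.9298 CPM (adjusted p = 0.0135). Gzma, a granzyme, read 0.271, 0.309 and 0.0599 CPM against 1.305, 4.3 and 0.332 CPM, and Klrk1, an activating receptor, read 1.04, 1.33 and 0.449 CPM against 4.37, 16.6 and 1.04 CPM (adjusted p = 0.0394 and 0.0462). Cd2, a T cell adhesion receptor, read 1.699, 1.91 and 1.12 CPM against 5.49, 10.5 and 1.22 CPM, and the ranges overlap (adjusted p = 0.0639). With libraries left out in turn, the calls of Ccr2, Gzma and Klrk1 were lost in every case but without control-vector library 3 (highest adjusted p = 0.126, 0.128 and 0.147), and that of Xcr1 without decoy-vector library 3 (adjusted p = 0.065). The log2 changes of Ccr2, Xcr1, Gzma and Klrk1 were −1.602, −2.11, −1.97 and −1.54 without control-vector library 2, against −2.76, −2.803, −3.24 and −2.98 with all libraries. All macrophage markers, tested or not, summed to 426 to 3604 CPM with the control vector, 311 to 478 CPM with the decoy vector and 174 to 220 CPM with saline, and the T cell markers to 24.6 to 169 CPM, 22.4 to 40.0 CPM and 10.8 to 14.6 CPM. The macrophage falls ran from 0 in 6 of the 9 omissions to 25 without control-vector library 3, and the dendritic cell falls from 0 without decoy-vector library 3 to 7 without control-vector library 3. The cytotoxic falls ran from 0 in 8 of the 9 omissions to 15 without control-vector library 3, and the T cell falls from 0 in 8 of the 9 omissions to 20 without control-vector library 3.

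Ighm (ENSMUSG00000076617, chr12:113418558-113422730), the heavy chain of immunoglobulin M, went against most of the B cell list. It read 707, 904 and 864 CPM with the decoy vector, 157, 155 and 189.6 CPM with the control vector and 158, 88.3 and 158 CPM with saline, 4.93-fold higher than with the control vector (log2 change 2.302 ± 0.23, adjusted p = 0.00103), and the call held without any single library. None of the other 18 tested B and plasma cell genes was called, and 17 of the 19 had a negative log2 change. Pou2af1, a B cell coactivator, read 2.68, 1.16 and 0.659 CPM against 15.005, 49.96 and 0.199 CPM (adjusted p = 0.0704), and control-vector library 3 lay below all decoy-vector libraries. The whole list summed to 205 to 7455 CPM with the control vector and 1005 to 1224 CPM with the decoy vector. Most of the decoy-vector sums, 1224, 1157 and 1005 CPM in libraries 1 to 3, was Ighm itself. Igkc and Mzb1 of this list were at 0 in all 6 libraries. Across omissions the B cell falls ran from 0 in 8 of the 9 omissions to 13 without control-vector library 3.

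Chemokines divided. Of 22 tested, 10 fell and 2 rose (45.5% and 9.09%, against 10.3% and 10.9% of all genes). In the 6-library fit 1 of each was called. With libraries omitted, the chemokine falls ran from 0 without decoy-vector library 3 to 17 without control-vector library 3, and the chemokine rises from 0 without decoy-vector library 3 to 2 without saline library 1 or 3 or control-vector library 2 or 3. Cxcl11, an interferon-induced attractant of T cells, read 1.805, 1.89 and 1.92 CPM against 7.22, 9.398 and 3.67 CPM (adjusted p = 0.0137), and Ccl25, an attractant of gut-homing lymphocytes, read 14.9, 18.5 and 16.2 CPM against 9.904, 11.3 and 10.5 CPM (adjusted p = 0.0135). Cxcl14, a chemokine made by unstimulated tissue, read 56.8, 76.1 and 59.6 CPM against 35.1, 43.8 and 25.1 CPM (adjusted p = 0.04, and 0.0601 in the 6-library fit). GENCODE annotates Cxcl11 as a polymorphic pseudogene. Leaving out libraries, the call of Cxcl11 was lost without decoy-vector library 1, 2 or 3 (highest adjusted p = 0.0641), that of Ccl25 without decoy-vector library 3 (adjusted p = 0.0531), and that of Cxcl14 without saline library 2, control-vector library 1 or decoy-vector library 1, 2 or 3 (highest adjusted p = 0.113). Mmp12, the elastase of macrophages, had the largest fall of the genes named by change, at 0.196, 0.346 and 0.165 CPM against 2.15, 7.09 and 9.41 CPM, 26.5-fold lower (log2 change −4.73 ± 0.88, adjusted p = 0.0125), and here control-vector library 3 was the highest. Among single omissions, the call of Mmp12 was lost without decoy-vector library 3 (adjusted p = 0.0648). Of 28 tested cell cycle genes 10 fell, 35.7% against 10.3% of all genes, and none rose. None of these falls was called in the 6-library fit. The cell cycle falls ran from 0 in 7 of the 9 omissions to 25 without control-vector library 3. Mki67, the marker of dividing cells, read 2.32, 2.26 and 0.989 CPM against 14.7, 38.4 and 1.705 CPM, and control-vector library 3 lay within the decoy-vector range (adjusted p = 0.0401, and 0.104 in the 6-library fit). When libraries were omitted singly, the call of Mki67 was lost in every case but without control-vector library 3 (highest adjusted p = 0.135). The log2 change of Mki67 was −2.14 without control-vector library 2, against −3.31 with all libraries.

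**Figure D4:**
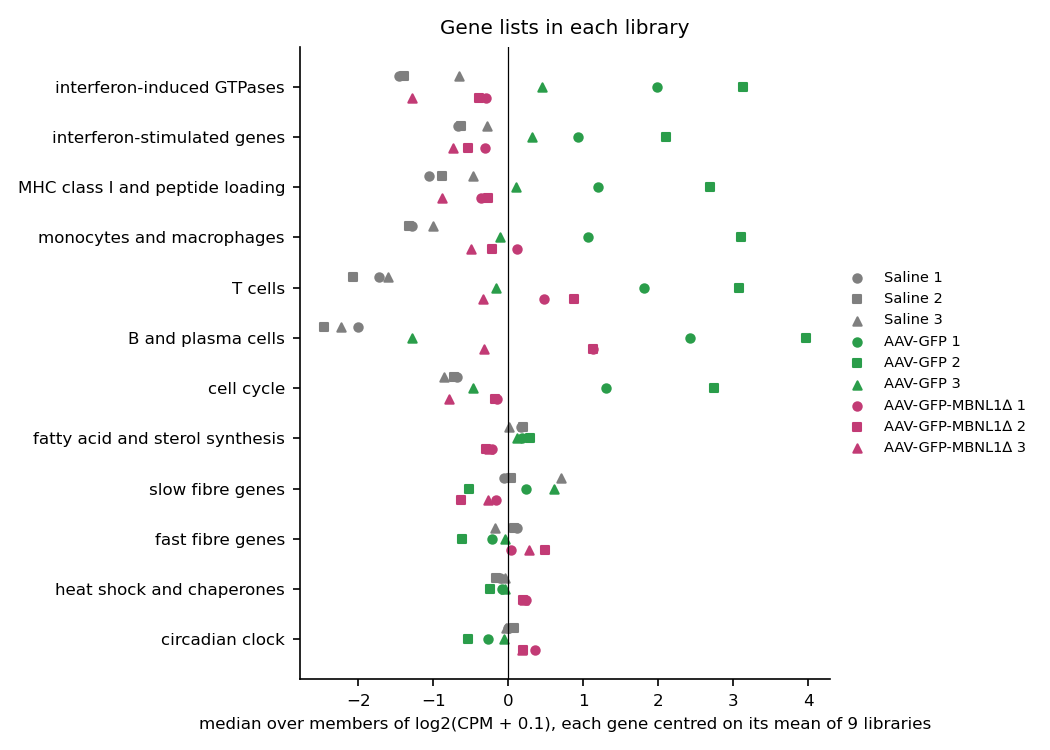
For 12 gene lists, the median over members of log2(CPM + 0.1) in each library, each gene centred on its mean over 9 libraries, with the symbol for the replicate number and the colour for the group. In the immune and cell cycle lists control-vector libraries 1 and 2 lie to the right of the other libraries, and in the clock and heat shock lists the decoy-vector libraries lie to the right of all control-vector libraries.

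Genes that adeno-associated virus uses to enter cells moved in both directions. Of 24 tested, 5 rose and 4 fell (20.8% and 16.7%, against 10.9% and 10.3% of all genes), with a median of 0.05. Under omission the rises ran from 0 without decoy-vector library 3 to 5 without control-vector library 2, and the falls from 1 without decoy-vector library 1, 2 or 3 to 6 without control-vector library 3. Rab7, a GTPase of late endosomes, read 295, 265 and 315 CPM against 199, 202 and 186 CPM and rose by 0.58 ± 0.12 (adjusted p = 0.0139), and Itgav, an integrin chain that serves as a co-receptor, read 34.6, 36.9 and 37.02 CPM against 54.1, 58.3 and 47.6 CPM and fell by 0.56 ± 0.09 on the log2 scale (adjusted p = 0.00587). AU040320, which encodes the common receptor of these viruses, read 54.2, 45.9 and 58.2 CPM against 42.4, 35.8 and 40.6 CPM (adjusted p = 0.0274, and 0.0728 in the 6-library fit). Under single omissions the call of Rab7 was lost without decoy-vector library 3 (adjusted p = 0.0667), and that of AU040320 without saline library 2 or decoy-vector library 1 or 3 (highest adjusted p = 0.108). Sensors of nucleic acids fell in 6 of 18 tested genes and rose in none (33.3% and 0%, against 10.3% and 10.9% of all genes). Over all omissions the sensor falls ran from 1 without decoy-vector library 1, 2 or 3 to 16 without control-vector library 3. Ifi203, a DNA-binding member of the p200 family, read 11.5, 13.7 and 11.2 CPM against 24.3, 32.02 and 21.4 CPM and fell by 1.09 ± 0.15 on the log2 scale (adjusted p = 0.00379), a call that held without any single library. Tlr3, the endosomal receptor for double-stranded RNA, read 3.29, 3.11 and 3.16 CPM against 6.598, 10.5 and 4.65 CPM (adjusted p = 0.017, and 0.0622 in the 6-library fit). The call of Tlr3 was lost without decoy-vector library 1, 2 or 3 (highest adjusted p = 0.074).

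Some lists held no call. None of 40 tested cytosolic ribosomal proteins and none of 14 tested smooth muscle and pericyte genes was called by edgeR, with medians of 0.01 and −0.08. At an unadjusted p under 0.05, 2 and 4 of them passed, and DESeq2 called 0 and 2. Rps20, a protein of the small ribosomal subunit, read 63.3, 73.5 and 70.3 CPM against 54.5, 68.7 and 57.6 CPM (adjusted p = 0.182), and Rgs5, a pericyte marker, read 364, 389 and 458 CPM against 326, 196 and 322 CPM (adjusted p = 0.0781). Schwann cell genes, from the nerve that runs in the muscle, fell in 3 of 11, 27.3% against 10.3% of all genes, and rose in none. Over the omissions the Schwann cell falls ran from 0 without decoy-vector library 2 or 3 to 2 without saline library 3, control-vector library 1, 2 or 3 or decoy-vector library 1. The 18 tested genes of DNA damage and p53 held 2 rises and 4 falls (11.1% and 22.2%, against 10.9% and 10.3% of all genes). The rises ran from 0 without decoy-vector library 3 to 2 without saline library 1, 2 or 3 or control-vector library 2 or 3, and the falls from 2 in 6 of the 9 omissions to 9 without control-vector library 3.

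**Figure D5:**
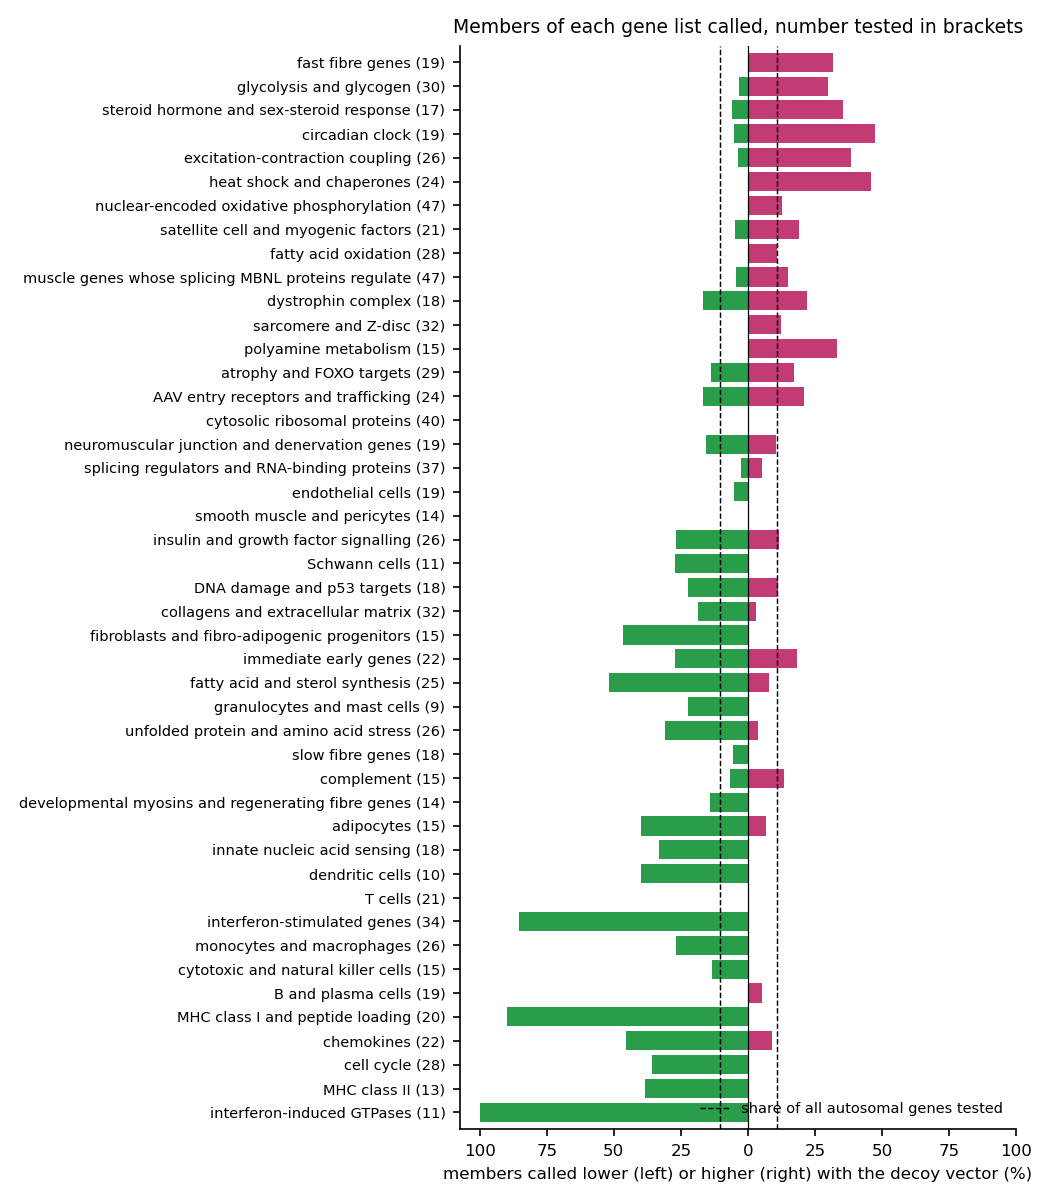
For each gene list, the percentage of tested members called lower (green, to the left) or higher (pink, to the right) with the decoy vector, in the order of the list medians, with dashed lines at 10.3% and 10.9%, the shares of all autosomal genes. Interferon-induced GTPases, MHC class I genes and interferon-stimulated genes reach furthest left, and the clock and heat shock lists furthest right.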

How the data were processed

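The deposited values are counts of reads per gene, 1 table per library. Per the labels' protocols, Trizol RNA was treated with DNase and 250 ng went into a KAPA mRNA kit. Per the submitters' processing notes, cutadapt 2.10, STAR 2.7.5a, HTSeq 0.12.4, DESeq2 1.30.0 and mm10 were used. The sources used here do not give the annotation release or the strand setting, so overlapping and antisense genes may share reads. Of 55401 identifiers, 55141 matched GENCODE M21. The 5 rows that name no gene held 16.8% to 18.3% of reads and were left out.

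A single edgeR model held all 9 libraries (edgeR 4.0.16, R 4.3.3, TMM scaling, expression filter, robust quasi-likelihood F test, 1 mean per group, 6 residual degrees of freedom, biological coefficient of variation 0.232). Benjamini-Hochberg adjustment ran over all 18514 genes tested, and an adjusted p refers to this edgeR test unless another fit is named. Errors after ± are standard errors of log2 changes as implied by the test, the size of the change divided by the square root of F. CPM are counts over the TMM-scaled library size. The procedure was tested on simulated data that held no outlying library and no unequal spread between groups. That test cannot show how far the calls here depend on single libraries. With 3 libraries against 3, the fit of 6 libraries had 4 residual degrees of freedom.

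The comparison and the 45 gene lists were chosen with earlier results of these data known. The naming rule takes Mbnl1 and Mbnl2, up to 4 members per list by p-value, the members of counts of 5 or fewer, and per direction the 10 genes with the greatest change and the 10 with the smallest p-value among autosomal protein-coding genes called in the fits of 9 and 6 libraries, with separate groups and a mean of 1 CPM or more. Some genes that this rule names are not reported here. Fkbp5 and Ciart were chosen after their values were seen. Alternatives were DESeq2's size factors, scaling without mitochondrial and the 10 most abundant genes, other filters, DESeq2 1.42.0, limma-voom of limma 3.58.1 with library weights, a fit that is not robust, the 6 compared libraries, autosomal genes alone, a replicate block and single libraries left out. Leaving libraries out of the 6-library fit was added after the data were seen. Genes on other chromosomes were not analysed here beyond the check of sex-linked genes.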

Additional observations from a re-analysis of the deposited data

Results flagged for a closer look

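The Y chromosome lies outside the autosomal comparison, and 4 of its genes stood above the level of every control-vector and saline library in all decoy-vector libraries. The lowest decoy-vector value was 82.7 CPM for Ddx3y, where the highest other library read 2.58 CPM. For Eif2s3y it was 50.5 CPM against 1.11 CPM, for Uty 26.7 CPM against 0.741 CPM, and for Kdm5d 12.4 CPM against 0.0741 CPM. Control-vector library 1 gave the highest of the other values in all 4 genes. What gave these counts in that library was not tested. The labels give no sex. By Xist and these Y-linked genes the decoy-vector libraries read as male and the other libraries as female, so vector and sex cannot be told apart.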

How the results depend on the processing

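Against 1947 higher and 1832 lower calls, no filter on low counts gave 1076 lower, DESeq2 gave 2881 lower, limma-voom with library weights gave 4303 higher and 4638 lower, and the 6 compared libraries gave 764 higher and 347 lower. Single libraries left out of the 9-library fit gave 538 to 2308 higher and 251 to 4104 lower, the remaining pair of a group being assumed to vary like the other group. In the 6-library fit, leaving out control-vector library 1, 2 or 3 gave 72, 1426 and 1503 higher and 22, 1146 and 2502 lower, and leaving out decoy-vector library 1, 2 or 3 gave 73, 91 and 55 higher and 24, 11 and 5 lower. The extremes with 9 libraries came from decoy-vector library 3 and control-vector library 3. The cause was not tested.

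Higher calls made up 51.5% of all calls with 9 libraries, 68.8% with 6 libraries and 36% without control-vector library 3. No scaling moved the median of all genes by over 0.1 on the log2 scale.

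The log2 fold change of Mbnl2, which was not called, turned negative under limma-voom with weights (−0.13) and without control-vector library 2 (−0.0734 with 9 libraries and −0.0765 with 6), and with 9 libraries its values under single omissions ran from −0.0734 to 0.181.

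The replicate number as a block gave 1492 higher and 1249 lower calls, of which 1451 and 1127 were calls of the fit without it. Deviations of replicates with the same number gave r = 0.04, 0.127 and 0.547 over 13543 genes, and those with unlike numbers ran from −0.538 to 0.385. Deviations centred within groups of 3 libraries cannot decide whether the numbers pair the libraries.

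Every library held 44603618 counts or more, and the sums of the immune lists spread more widely over the control-vector libraries than over the decoy-vector libraries.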
